A study of Mus musculus with 48 samples.

Results

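The HNF4 transcription factor genes of the mouse, Hnf4a and Hnf4g, were described in liver from deposited RNA values and from peak lists of the factors HNF4α and C/EBPα. The genes were chosen by name, and both were found, as 2 of the 37583 genes in the RNA table. The rule uses their names alone. RNA had been sequenced from 8 livers: 2 of the HNF4aKO group, 3 of the CEBPaKO group and 3 labelled wild type (WT). The HNF4aKO livers carried HNF4a lox/lox with Alfp-Cre, and the CEBPaKO livers carried C/EBPa lox/lox with Alfp-Cre. Alfp-Cre is a Cre recombinase driven by albumin and alpha-fetoprotein regulatory sequence, active in the liver parenchymal lineage, so the other cells of the organ keep the intact gene. For the WT livers the labels name neither a lox allele nor Cre. All mice were F1 animals of C57Bl6 and CBA and, per the labels' protocols, age-matched males without treatment. Chow and a high-fat diet are both named there without saying which mice had which. The sample labels put the RNA livers at 60 days after birth, whereas the series text puts them at E18.5 (embryonic day 18.5), so the age of the RNA samples is uncertain. Binding had been mapped in liver by chromatin immunoprecipitation with sequencing (ChIP-seq), with 2 replicates of each factor at 5 stages, which were E15.5, E18.5, and the postnatal (P) days 0.5, 14 and 60, written P0.5, P14 and P60. The genotype of the ChIP livers is not compared here.

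HNF4 proteins are nuclear receptors that bind DNA as homodimers at direct repeats of a short element, and fatty acids can occupy their ligand pocket. Hnf4a encodes the form that dominates in hepatocytes, where it maintains genes of lipoprotein, bile acid, clotting factor and nitrogen metabolism. Its transcripts start at a pair of promoters: P1, the main promoter of the mature liver, and P2, which lies far upstream and is used in pancreas, gut and early liver. Hnf4g encodes a close relative best known from intestine, kidney and pancreas.

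Both start sites of Hnf4a are shown because the binding data below are read against them. The RefSeq promoter table (build GRCm38.p6) held 2 start sites for Hnf4a, and the 250 bases before each are printed on the plus strand, with capitals marking matches to the motifs named below. The upstream promoter (P2) lies at chr2:163506607-163506856 and the downstream promoter (P1) at chr2:163546905-163547154.
Hnf4a P2: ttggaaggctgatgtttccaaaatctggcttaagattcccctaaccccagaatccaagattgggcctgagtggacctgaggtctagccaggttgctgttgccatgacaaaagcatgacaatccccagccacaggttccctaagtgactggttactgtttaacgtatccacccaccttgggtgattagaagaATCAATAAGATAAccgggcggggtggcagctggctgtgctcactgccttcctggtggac
Hnf4a P1: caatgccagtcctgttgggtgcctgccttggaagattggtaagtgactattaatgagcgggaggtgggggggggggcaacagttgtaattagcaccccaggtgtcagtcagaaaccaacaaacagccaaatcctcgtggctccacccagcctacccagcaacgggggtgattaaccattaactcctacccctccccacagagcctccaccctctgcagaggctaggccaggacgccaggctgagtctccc
The start sites lie 40298 bp apart in that build. Motifs of 5 liver factor families were searched as plain letters on both strands. HNF4 was represented by CAAAGTCCA, found in 0.38% of 32851 promoters cut to the same 250 bases. C/EBP proteins were represented by TTGCNNAA, found in 9.56% of them. For the FOXA factors the letters were TGTTTAC, found in 3.17%. For the ONECUT factors the letters were ATCAATA, found in 1.86%. For the factors named after GATA the letters were AGATAA, found in 9.99%. Of these, P2 held the ONECUT letters at bases -59 to -53 before the start site and, directly after them and without overlap, the letters of the GATA factors at bases -52 to -47. Neither window held the letters searched for HNF4, C/EBP or FOXA, which says only that these letters are not in these windows.

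The libraries differed among themselves. The RNA libraries held between 13.4 and 26.0 M normalized reads. HNF4aKO replicate 1 was rich in skeletal muscle RNA: its 10 skeletal muscle markers, led by Acta1 and Ckm, summed to 613727 normalized reads, against 260 in HNF4aKO replicate 2, 107 to 1224 in CEBPaKO and 82 to 184 in WT. The deviation from the group mean fell most with the GC content of the gene in CEBPaKO replicate 1 and WT replicate 3. The rank correlations over genes were -0.37 and -0.4, and the other 6 libraries lay between -0.16 and 0.36. Deviations sum to 0 within a group, so a fall in 1 library comes with a rise in others of its group. CEBPaKO replicate 3 was at 0.36 and WT replicates 1 and 2 at 0.23 and 0.25. These values therefore do not say which library of a group was unusual. Checked against markers of liver, all 10 hepatocyte markers, led by Alb and Afp, were above 0 in every library. The HNF4α replicates of P0.5 hold the same peaks line by line and count as 1 list, which leaves 9 distinct HNF4α lists and 10 of C/EBPα. The HNF4α lists at E18.5 shared few peaks. Of the peaks of replicates 1 and 2, 35.6% and 46.0% overlapped a peak of the other replicate, against 71.2% to 91.8% at the 3 other stages with 2 distinct lists.

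Hnf4a (ENSMUSG00000017950, protein coding, chr2:163332544-163398646 in mm9, plus strand) was lowest in livers in which it was the targeted gene, yet its RNA was not lost there. It was at 1238 and 2444 normalized reads in the HNF4aKO livers, at 2492, 2530 and 4510 in the CEBPaKO livers and at 9098, 4948 and 6718 in the WT livers. The 3 groups did not overlap in any pair: each HNF4aKO value lay below each CEBPaKO value, and each CEBPaKO value below each WT value. The group means were 1841 ± 852.8 (SD, n = 2) in HNF4aKO, which is 26.6% of WT, 3177 ± 1154 (SD, n = 3) in CEBPaKO, which is 45.9% of WT, and 6921 ± 2083 (SD, n = 3) in WT. A value per gene includes reads outside any deleted segment and RNA of cells in which Cre is not active, and the files do not separate these.

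Hnf4a fell by 1.95 ± 0.45 (SE) on the log2 scale in HNF4aKO minus WT, or 3.86-fold, with an adjusted p of 0.033 in limma with Benjamini-Hochberg adjustment over 17771 genes. It passed the threshold for a call, an adjusted p under 0.05 and at least a 2-fold change, as did 4.70% of all genes tested. Groups that did not overlap were found for 44.6% of genes in this comparison. The call ended when HNF4aKO replicate 1 was left out (-1.46, adjusted p = 0.44), without WT replicate 1 (-1.73, adjusted p = 0.142) and without WT replicate 3 (-1.95, adjusted p = 0.0879). It also ended without the filter on low values (adjusted p = 0.0598) and in limma without a variance trend (adjusted p = 0.0753).

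In CEBPaKO minus WT the log2 change of Hnf4a was -1.14 ± 0.40 (SE), with an adjusted p of 0.188 in limma, and Hnf4a was not among the 3.75% of genes called. Groups that did not overlap were found for 18.8% of genes. Weighting the libraries by their quality, an alternative within limma, gave -1.66 with an adjusted p of 0.00365, past the threshold. These weights called 2369 of all genes, against 666 in the reported fit. Scaling by library totals gave -0.63 with an adjusted p of 0.39 in limma. Between the knockouts, HNF4aKO minus CEBPaKO, the log2 difference was -0.81 ± 0.45 (SE) with an adjusted p of 0.36 in limma, not called, in a comparison that called 3.48% of genes and left 34.4% without overlap. With single libraries left out it ran from -1.3 to -0.32, the smallest without HNF4aKO replicate 1, and with library totals it was -1.39 (adjusted p = 0.0992 in limma). That Hnf4a is lower in HNF4aKO than in CEBPaKO livers was thus not shown beyond the spread between libraries.

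The summed level of the 10 hepatocyte markers was, like Hnf4a, lower in both knockouts than in WT. It was 1428757 to 1972475 normalized reads in HNF4aKO, 288945 to 1201211 in CEBPaKO and 2901713 to 4859289 in WT, and its part in the Hnf4a values was not tested. The 9 bile duct markers, led by Spp1 and Sox4, summed to 3337 to 3627 in HNF4aKO, 9599 to 13924 in CEBPaKO and 1944 to 3178 in WT. The 8 erythroid markers, led by Hbb-b1 and Hba-a1, summed to 2383427 to 3769708 in HNF4aKO, 758556 to 1359787 in CEBPaKO and 642722 to 2127521 in WT. In bulk tissue, fewer hepatocytes and less RNA per hepatocyte cannot be told apart. The hepatocyte marker sum was lowest in CEBPaKO. Hnf4a was lowest in HNF4aKO, though its difference between the knockouts was not shown beyond the spread between libraries.

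Hnf4g (ENSMUSG00000017688, protein coding, chr3:3508030-3659775 in mm9, plus strand) did not exceed 31 normalized reads in any library. It was at 16 and 31 normalized reads in the HNF4aKO livers, at 31, 16 and 10 in the CEBPaKO livers and at 3, 3 and 23 in the WT livers. The groups overlapped in all 3 comparisons: WT replicate 3 lay within the range of both knockouts, while WT replicates 1 and 2 lay below every knockout library. The means were 23.5 ± 10.6 (SD, n = 2) in HNF4aKO, 19.0 ± 10.8 (SD, n = 3) in CEBPaKO and 9.7 ± 11.5 (SD, n = 3) in WT. In limma the log2 difference was 1.68 ± 0.97 (SE, adjusted p = 0.348) in HNF4aKO minus WT, 1.32 ± 0.86 (SE, adjusted p = 0.572) in CEBPaKO minus WT and 0.36 ± 0.97 (SE, adjusted p = 0.878) in HNF4aKO minus CEBPaKO. None of the 3 passed the threshold.

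The outcome for Hnf4g depended on a few libraries. The highest CEBPaKO value and the highest WT value came from CEBPaKO replicate 1 and WT replicate 3. In these libraries the deviations fell most with GC content, and Hnf4g has 36.43% GC against 48.32% for Hnf4a. The part of GC content in the Hnf4g values was not tested. Without these libraries, a choice made after seeing the data, the log2 difference of Hnf4g was 2.54 (adjusted p = 0.247) in HNF4aKO minus WT and 1.77 (adjusted p = 0.522) in CEBPaKO minus WT in limma. With single libraries left out it ran from 1.23 (without HNF4aKO replicate 2) to 2.54 (without WT replicate 3) in HNF4aKO minus WT. In CEBPaKO minus WT it ran from 0.89 (without WT replicate 1 or without WT replicate 2) to 2.18 (without WT replicate 3). With library quality weights it passed the threshold in both. It was then 2.32 (adjusted p = 0.0363) in HNF4aKO minus WT and 2.46 (adjusted p = 0.0297) in CEBPaKO minus WT in limma. These weights called 3772 and 2369 of all genes in these comparisons, against 836 and 666 in the reported fit.

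Markers of the organs in which Hnf4g is best known were also summed. The 10 intestinal epithelium markers, led by Fabp2 and Vil1, summed to 87 to 126 normalized reads in HNF4aKO, 542 to 1034 in CEBPaKO and 198 to 413 in WT. Of these 10, 4 were above 0 in every library, whereas Cdx1 and Cdx2 were at 0 or 1 in all 8 libraries. The 9 kidney tubule markers, led by Slc5a2 and Cubn, summed to 45 to 61 in HNF4aKO, 91 to 112 in CEBPaKO and 52 to 113 in WT. The 10 pancreatic acinar markers, led by Cela1 and Ctrb1, summed to 736 to 843 in HNF4aKO, 161 to 208 in CEBPaKO and 246 to 521 in WT. Of these 10, 2 were above 0 in every library, and Ptf1a alone was at 0 throughout. The part of intestinal, kidney or pancreatic cells in the Hnf4g values was not tested.

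**Figure D1:**
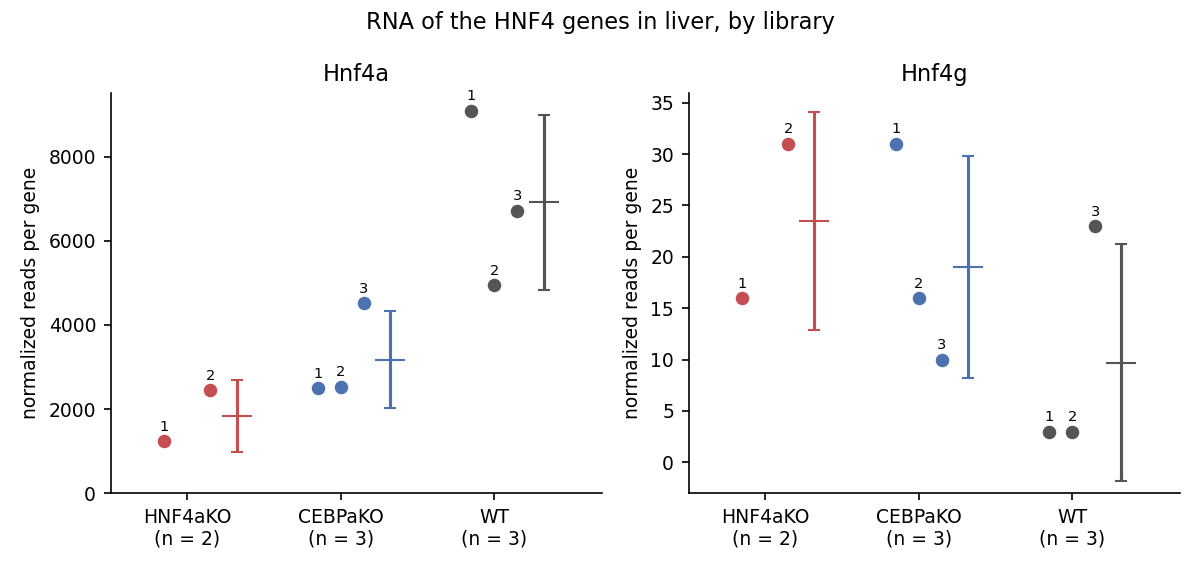
Normalized reads of Hnf4a (left) and Hnf4g (right) in each liver library of the HNF4aKO, CEBPaKO and WT groups; points are libraries with their replicate number, and horizontal marks with bars are means ± SD. Hnf4a values step up from HNF4aKO to CEBPaKO to WT without overlap, while the Hnf4g value of WT replicate 3, at 23, lies among the knockout values.

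The balance between the genes was taken as log2(Hnf4g + 1) minus log2(Hnf4a + 1) in each library, without correction for transcript length, so only its difference between groups is read. It was -6.19 and -6.26 in the HNF4aKO livers, -6.28, -7.22 and -8.68 in the CEBPaKO livers and -11.15, -10.27 and -8.13 in the WT livers. HNF4aKO values lay above all CEBPaKO and WT values, and the CEBPaKO and WT values overlapped through CEBPaKO replicate 3 and WT replicate 3. The difference was 3.63 in HNF4aKO minus WT, 2.46 in CEBPaKO minus WT and 1.17 in HNF4aKO minus CEBPaKO, each with p = 0.2 in a 2-sided exact permutation test over libraries. With single libraries left out the last of these ran from 0.53 (without CEBPaKO replicate 3) to 1.73 (without CEBPaKO replicate 1), the difference in HNF4aKO minus WT from 2.98 to 4.49 and that in CEBPaKO minus WT from 1.81 to 3.32. The smallest p these group sizes allow is 0.1, so the test could not pass 0.05. Across the 8 libraries, which include the group differences, Hnf4a and Hnf4g had a Pearson correlation of -0.57 and a Spearman correlation of -0.58, given as a description.

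The genes most like Hnf4a across the 8 libraries, by Pearson correlation of log2(value + 1) among 17771 genes, were 5033414D02Rik (0.981), Gm17608 (0.968), Rbm12b (0.963), Arhgef26 (0.961) and Gigyf2 (0.956). The gene at the top of that order, 5033414D02Rik, was at 192 and 269 normalized reads in HNF4aKO, at 319, 258 and 581 in CEBPaKO and at 1003, 578 and 712 in WT, lowest in HNF4aKO and highest in WT by mean, though neighbouring groups overlapped. The genes most like Hnf4g were RP23-358B23.3 (0.991), Mmp27 (0.979), Cttnbp2nl (0.962), Gm6175 (0.939) and Glb1 (0.936). RP23-358B23.3 was at 21 and 34 in HNF4aKO, at 31, 23 and 17 in CEBPaKO and at 8, 10 and 29 in WT, with WT replicate 3 again high. All points share libraries and groups, so these correlations carry no test.

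Genes beside Hnf4a did not all follow it. Of 11 table genes that overlapped Hnf4a or lay within 100 kb, 5 passed the filter on low values. In each of the 3 comparisons 1 of these 5 was called. Of all genes, 4.70% were called in HNF4aKO minus WT, 3.75% in CEBPaKO minus WT and 3.48% in HNF4aKO minus CEBPaKO. In HNF4aKO minus WT only Serinc3, 50.4 kb from Hnf4a and encoding a serine incorporator family membrane protein, was called. Serinc3 was at 2699 and 3240 in HNF4aKO, at 10487, 15249 and 7995 in CEBPaKO and at 9155, 10022 and 11593 in WT. It fell by 1.79 ± 0.41 (SE, adjusted p = 0.0317) in HNF4aKO minus WT and by 1.88 ± 0.41 (SE, adjusted p = 0.0325) in HNF4aKO minus CEBPaKO in limma. In CEBPaKO minus WT only Fitm2, 34.2 kb from Hnf4a and encoding a lipid droplet protein of the endoplasmic reticulum, was called. It was at 264, 253 and 327 in CEBPaKO and at 1160, 752 and 772 in WT, a log2 change of -1.65 ± 0.36 (SE, adjusted p = 0.0268). The other 3 genes tested, 3230401D17Rik, Ttpal and Pkig, were not called in any comparison. The antisense gene 0610008F07Rik, which overlaps the 5′ part of Hnf4a, was at 0 to 11 in all libraries, and whether reads were assigned by strand is not given in the sources used here. At Hnf4g the only such gene was the miRNA AC107454.1, listed at 0 in all 8 libraries.

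HNF4α bound its own gene at many places, and most of them lay in the gene body well inside the annotated start. A region was called bound at a stage when it held overlapping peaks of both replicates. Over Hnf4a and 10 kb on each side there were 14 distinct HNF4α regions across the 5 stages: 12 in the gene body, 2 downstream and 0 upstream. Of these 14, 9 were bound at E15.5, 2 at E18.5, 4 at P0.5, 4 at P14 and 12 at P60, where a P0.5 region of HNF4α rests on 1 list. Counted within each stage, before neighbouring regions joined on merging the stages, the number bound was 11 at E15.5, 2 at E18.5, 5 at P0.5, 4 at P14 and 14 at P60. Peaks of a single replicate were not counted, and wide peaks could join their neighbours within a stage. At P14 the replicates held 7 and 8 peaks over the gene and its flanks, against 4 regions. The median peak width ran from 337 bp in an E18.5 list to 1009 bp at P0.5. The part of peak width in the region counts was not tested. Without the HNF4α lists of E18.5, left out after seeing the data, 13 distinct regions remained. Among 3004 genes of similar length (within 1.5-fold) the median was 2 at E15.5, 0 at E18.5 and 1 at each of P0.5, P14 and P60. By the count within each stage, Hnf4a had more HNF4α regions than 99.0% of these genes at E15.5, 84.2% at E18.5, 93.6% at P0.5, 85.0% at P14 and 99.4% at P60. At least 1 region over the gene or its flanks was found for 44.6%, 24.6%, 35.5%, 34.1% and 41.0% of all 37583 genes at the 5 stages in turn.

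C/EBPα also bound Hnf4a, with 21 distinct regions, 18 in the gene body and 3 downstream. Of these 21, 1 was bound at E15.5, 17 at E18.5, 20 at P0.5, 8 at P14 and 13 at P60. Counted within each stage, the number bound was 1, 18, 22, 8 and 13 in turn. The median of genes of similar length was 0, 3, 5, 2 and 2 at the 5 stages in turn. Hnf4a exceeded 59.5% of them at E15.5 and 99.6%, 99.5%, 96.1% and 99.4% at the later stages. Over all 37583 genes, 21.2%, 56.8%, 66.0%, 43.3% and 46.7% had a C/EBPα region over the gene or its flanks. The C/EBPα lists held 13434 to 121624 peaks, and the part of their sizes in these counts was not tested. Peak heights were not given in the lists.

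**Figure D2:**
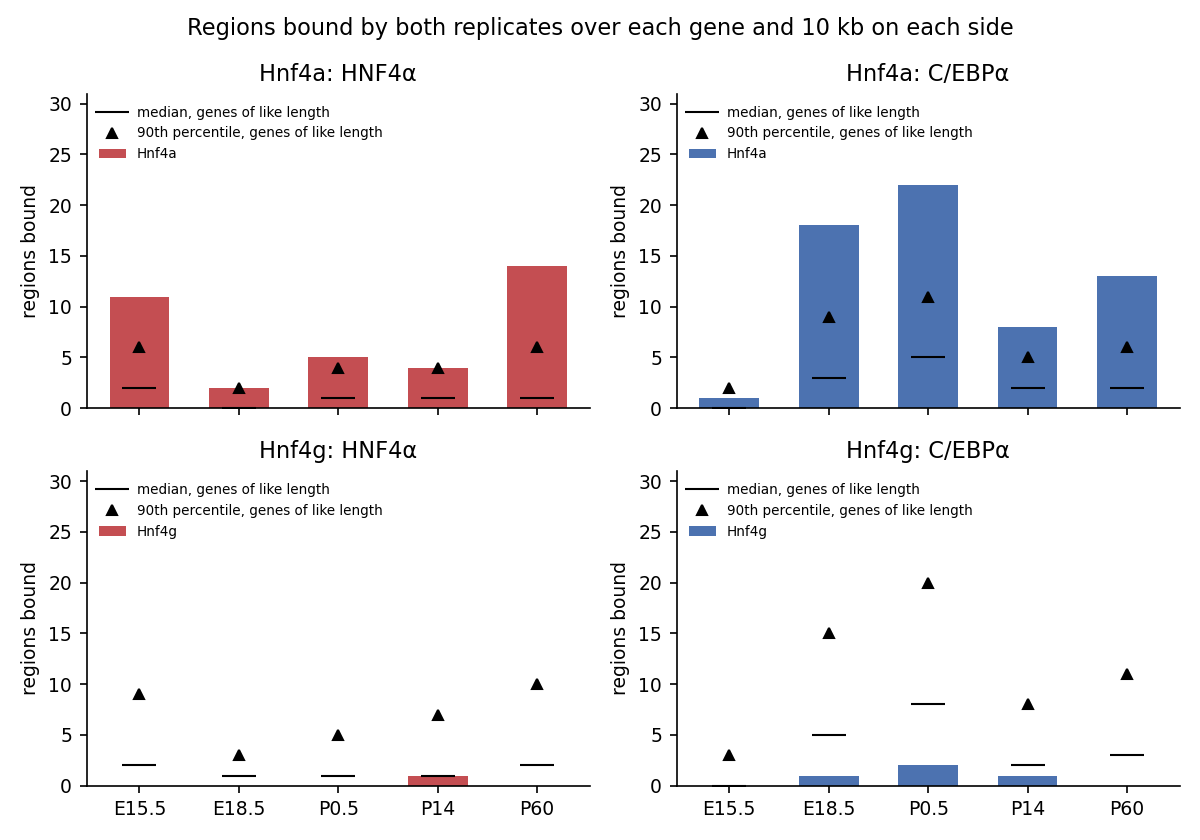
Number of regions bound by both replicates over Hnf4a (top) and Hnf4g (bottom) and 10 kb on each side, for HNF4α (left) and C/EBPα (right) at the 5 stages; bars are the gene itself, dashes the median and triangles the 90th percentile of genes of similar length. The Hnf4a bars reach 14 for HNF4α at P60 and 22 for C/EBPα at P0.5, whereas the Hnf4g bars stay at 0 to 2.

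A single block, joined by merging the stages, held an HNF4α region at all 5 stages. The joined block spans chr2:163363097-163368074 (mm9), 30.6 to 35.5 kb into Hnf4a. Its centre lies 7.3 kb before the distance at which RefSeq puts P1. Not every stage filled it: at E18.5 the replicates overlapped there only in peaks centred at 34.04 and 33.98 kb. Within the block, a C/EBPα region at chr2:163366182-163366949, centred 34.0 kb from the gene start, was the only C/EBPα region bound at all 5 stages. Every distinct list had a peak there, 9 of 9 for HNF4α and 10 of 10 for C/EBPα. The centres of these peaks lay between 33.98 and 34.5 kb for HNF4α and between 33.99 and 34.1 kb for C/EBPα. Both HNF4α lists at E18.5 were among them, with peaks at 34.04 and 33.98 kb, although these lists otherwise shared few peaks.

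Other HNF4α regions were bound at some stages and not at others. Genome-wide, HNF4α had 35764 regions at E15.5 and 36322 at P60, against 18359 at E18.5, 21262 at P0.5 and 23800 at P14. The part of these sizes in the differences between stages was not tested. The regions centred at 52.4 kb and, just downstream of the gene, at 68.2 kb were bound at E15.5, P0.5, P14 and P60. A region at 48.7 kb was bound at E15.5, P0.5 and P60, and regions at 26.6, 28.5, 50.8 and 57.8 kb at E15.5 and P60 only. Peaks of a single replicate also lay at 28.5 kb at E18.5 (replicate 2) and P14 (replicate 1). The same held at 48.7 kb at P14 (replicate 2) and at 68.2 kb at E18.5 (replicate 1). Regions bound at P60 only lay at 40.3, 42.1 and 54.9 kb, and the region at 54.9 kb also had a peak in replicate 1 alone at E15.5. The region at 40.3 kb (chr2:163372553-163373077, mm9) lies as far from the gene start as the RefSeq P1 start site lies from P2. These distances come from different builds and no position was converted. The region at 64.7 kb was bound at E15.5 only, that at 15.5 kb at E18.5 only, and that at 73.8 kb at P14 and P60.

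The annotated start of Hnf4a, the upstream end of the gene in the mm9 table, held no HNF4α region within 1 kb at any of the 5 stages. Over all genes the start held an HNF4α region for 13.0% at E15.5, 3.69% at E18.5, 12.7% at P0.5, 12.1% at P14 and 16.9% at P60. For C/EBPα, a region at chr2:163333457-163334003, centred 1.2 kb into the gene, reached into the 1 kb window at E18.5 and P0.5. Over all genes the start held a C/EBPα region for 4.04% at E15.5, 19.6% at E18.5, 28.4% at P0.5, 15.2% at P14 and 14.6% at P60. The same place had a peak in replicate 1 only at E15.5 and in replicate 2 only at P60. With a window of 500 bp, no stage counted as bound.

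The factors met at many of these places. Of the 14 HNF4α regions, 8 overlapped a C/EBPα region of some stage, and of the 21 C/EBPα regions, 14 overlapped an HNF4α region of some stage. Within a stage, 1 of 11 HNF4α regions overlapped C/EBPα at E15.5, 1 of 2 at E18.5, 4 of 5 at P0.5, 3 of 4 at P14 and 9 of 14 at P60. Genome-wide, 15.8%, 31.9%, 70.3%, 57.9% and 55.8% of HNF4α regions overlapped C/EBPα at these stages, and the counts at Hnf4a are too small to be set apart from these shares.

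**Figure D3:**
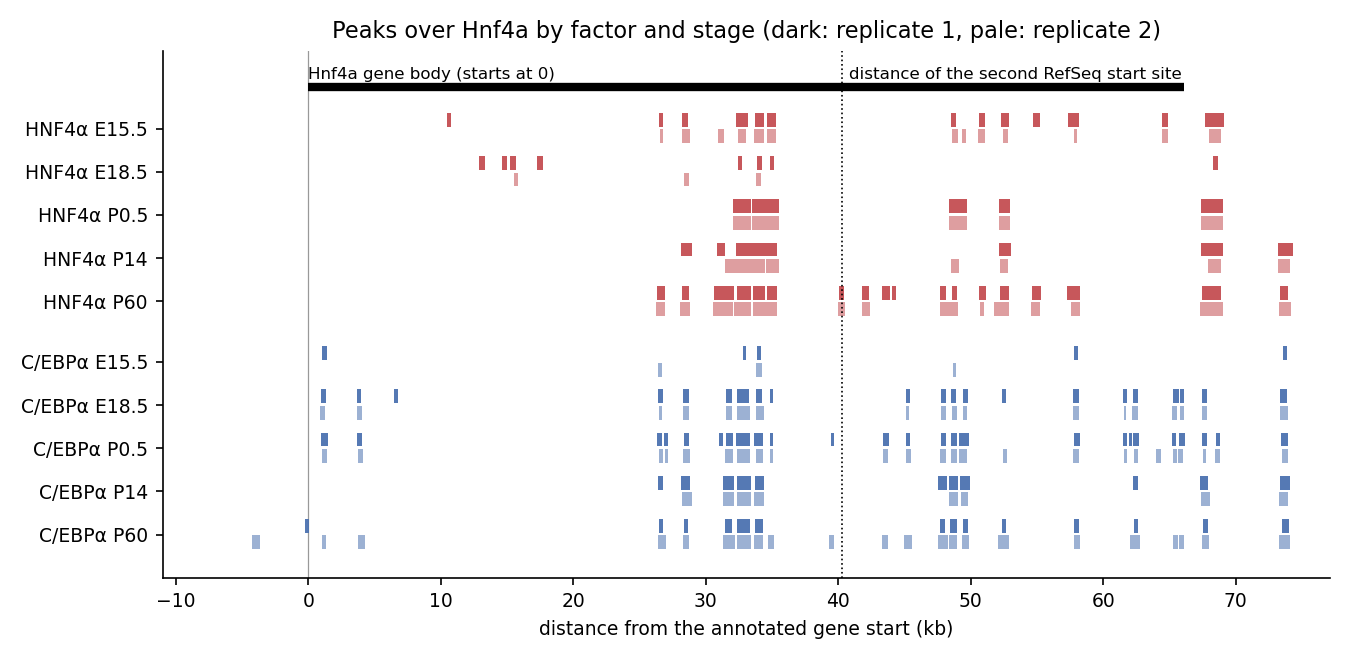
Peaks of HNF4α (red) and C/EBPα (blue) over Hnf4a at the 5 stages, by distance in kb from the annotated gene start; the upper dark row of each stage is replicate 1, the lower pale row replicate 2, and the dotted line marks the RefSeq distance of P1. Peaks near 34.0 kb appear in every row, and HNF4α peaks at 40.3 kb in the P60 rows alone; the HNF4α rows of P0.5 are identical lists.

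Hnf4g, although longer than Hnf4a, held fewer regions. HNF4α had 1 region there, at chr3:3582919-3583871 (mm9), 75.4 kb into the gene, bound at P14 and found in replicate 2 only at P60. At the other 4 stages no HNF4α region was bound in both replicates over the gene or its flanks. Among 1571 genes of similar length, 22.9%, 43.3%, 35.5% and 29.5% also had 0 HNF4α regions at E15.5, E18.5, P0.5 and P60. C/EBPα had 2 regions. The region at chr3:3540495-3541202, centred 32.8 kb into the gene, was bound at E18.5, P0.5 and P14 and found in replicate 2 only at P60. The region at the gene start, chr3:3507756-3508184, was bound at P0.5 and found in replicate 1 only at E18.5. At P0.5, the stage with most C/EBPα peaks, Hnf4g had 2 regions against a median of 8 for genes of similar length, of which 12.5% had fewer. Neither C/EBPα region overlapped an HNF4α region at any stage.

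**Figure D4:**
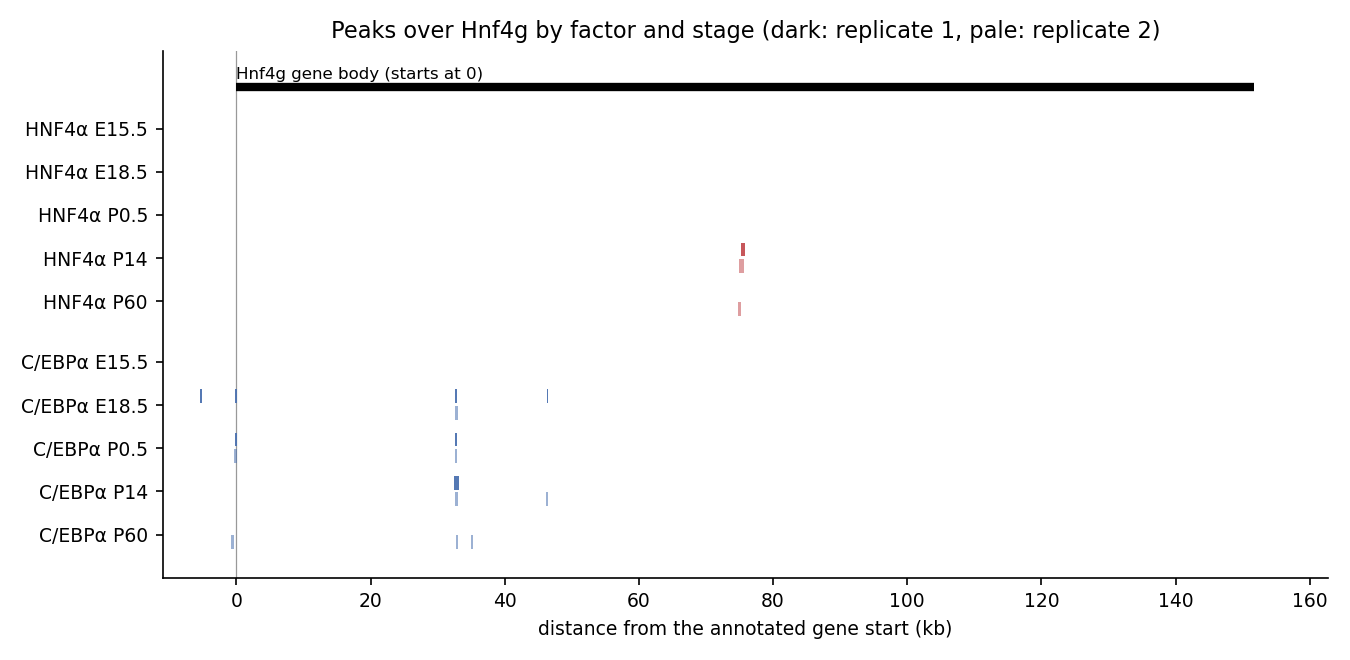
Peaks of HNF4α (red) and C/EBPα (blue) over Hnf4g at the 5 stages, by distance in kb from the annotated gene start; the upper dark row of each stage is replicate 1 and the lower pale row replicate 2. The recurrent C/EBPα place at 32.8 kb and the single HNF4α place near 75.4 kb recur between lists, and the other C/EBPα peaks lie at and near the gene start and at 35.08 and 46.3 kb.

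Liver factors known to act upstream of Hnf4a were set beside it. Of 11, 0 were called higher and 1 lower in HNF4aKO minus WT, against 1.54% and 3.17% of all genes tested. Their median log2 change was -0.62 against 0.02 over all genes tested. The called gene was Prox1, an early hepatoblast regulator, at 652 and 604 normalized reads in HNF4aKO and 1962, 1217 and 2219 in WT. In CEBPaKO minus WT, 1 was called higher, Gata6, and 2 lower, Cebpa and Foxa1, against 0.883% and 2.86% of all genes. The median was -0.50 against 0.03. Cebpa, the gene targeted there, was at 322, 419 and 998 in CEBPaKO and at 9999, 9594 and 5511 in WT. It was at 3886 and 4500 in HNF4aKO, a log2 change of -0.95 ± 0.49 (SE, adjusted p = 0.299) from WT in limma that was not called. In HNF4aKO minus CEBPaKO, 2 of the 11 were called higher and 1 lower, against 1.87% and 1.61% of all genes. Foxa1, a pioneer factor, was higher by 4.68 ± 0.78 (SE, adjusted p = 0.00937 in limma), and Cebpa was higher by 3.03. Onecut1, which acts on P2, was lower by 3.64 ± 0.80 (SE, adjusted p = 0.0339 in limma).

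Proteins that work with HNF4 or at its elements came next. None of 13 coregulators was called by limma in the reported fit of any of the 3 comparisons. An unadjusted p under 0.05 was found for 3, 3 and 1 of them in HNF4aKO minus WT, CEBPaKO minus WT and HNF4aKO minus CEBPaKO. Over all 17771 genes it was found for 3657, 2562 and 3314 in that order. Ppargc1a, the coactivator of fasting, named here after its values were seen, was at 160 and 157 in HNF4aKO and 390, 380 and 569 in WT (adjusted p = 0.058 in limma). The median log2 change of the 13 was -0.52 in HNF4aKO minus WT and -0.26 in CEBPaKO minus WT, against 0.02 and 0.03 over all genes. In HNF4aKO minus WT, library quality weights called 1 coregulator higher and 3 lower, and a filter at a mean of 100 normalized reads 1 lower. A fit of only the groups compared called 1 higher and 1 lower. Over all genes these settings called 3772, 744 and 1475 in turn. Without CEBPaKO replicate 2, 1 coregulator was called lower in HNF4aKO minus WT, and without CEBPaKO replicate 3, 1 higher and 1 lower. These fits called 1064 and 1372 of all genes. In CEBPaKO minus WT, quality weights called 1 lower. Of 9 tested receptors that bind related elements, Ppara, the fatty acid receptor of the liver, was called in HNF4aKO minus WT. Of all genes, 4.70% were called there. Ppara was at 90 and 140 in HNF4aKO, at 479, 169 and 817 in CEBPaKO and at 1053, 457 and 1874 in WT. It fell by 3.09 ± 0.69 (SE, adjusted p = 0.0275 in limma) in HNF4aKO minus WT. None of the 9 was called in the other comparisons. An unadjusted p under 0.05 was found for 1 in CEBPaKO minus WT and 2 in HNF4aKO minus CEBPaKO. Over all 17771 genes it was found for 2562 and 3314. Quality weights called 3 of the 9 lower in CEBPaKO minus WT, and 1 higher and 1 lower in HNF4aKO minus CEBPaKO. Over all genes these weights called 2369 and 2516. Without CEBPaKO replicate 3, 1 of the 9 was called lower in CEBPaKO minus WT, where 804 of all genes were called.

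Many genes described as HNF4 targets fell in each knockout. Of 26 targets, 14 were called lower and 1 higher in HNF4aKO minus WT, against 3.17% and 1.54% of all genes, and their median log2 change was -2.72 against 0.02. In CEBPaKO minus WT, 11 were called lower and 0 higher, against 2.86% and 0.883% of all genes, and the median was -1.99 against 0.03. That count was 7 without WT replicate 1 and 7 without WT replicate 3. The WT livers are shared by these comparisons. For the 10 hepatocyte markers set beside the targets, the median log2 change was -1.26 in HNF4aKO minus WT, with 0 called. In CEBPaKO minus WT it was -2.85, with 2 called lower and 0 called higher. An unadjusted p under 0.05 was found for 0 and 8 of the 10, against 3657 and 2562 of all 17771 genes. The part of these markers in the target values was not tested. Without HNF4aKO replicate 1, the library rich in muscle RNA, 10 were called lower and 0 higher in HNF4aKO minus WT, with a median of -2.69.

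The knockouts were then compared directly. In HNF4aKO minus CEBPaKO, 5 of 26 targets were called lower and 4 higher, against 1.61% and 1.87% of all genes. Lower in HNF4aKO were Baat, which conjugates bile acids, Otc, an enzyme of the urea cycle, Apob, the core protein of lipoproteins, Nr1i2, a xenobiotic receptor, and Mttp, which loads lipid onto Apob. Baat was at 10 and 8 in HNF4aKO, at 502, 501 and 1778 in CEBPaKO and at 1010, 581 and 894 in WT, so that HNF4aKO alone lay apart. Otc was at 43 and 62 in HNF4aKO, against 979, 722 and 692 in CEBPaKO, a log2 difference of -3.91 ± 0.39 (SE, adjusted p = 0.000997 in limma). Higher in HNF4aKO were Epo, the hormone of red cell formation, Tat, which breaks down tyrosine, Apoc3, an inhibitor of lipoprotein clearance, and Slc10a1, the bile acid importer. Slc10a1 was at 673 and 323 in HNF4aKO, at 48, 44 and 48 in CEBPaKO and at 4981, 5286 and 7541 in WT, so it was low in both knockouts and lower in CEBPaKO. Epo was at 179 and 198 in HNF4aKO, at 3, 1 and 16 in CEBPaKO and at 8, 14 and 0 in WT. Without HNF4aKO replicate 1 the direct comparison called 2 targets lower and 1 higher, and without HNF4aKO replicate 2, 3 lower and 1 higher.

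**Figure D5:**
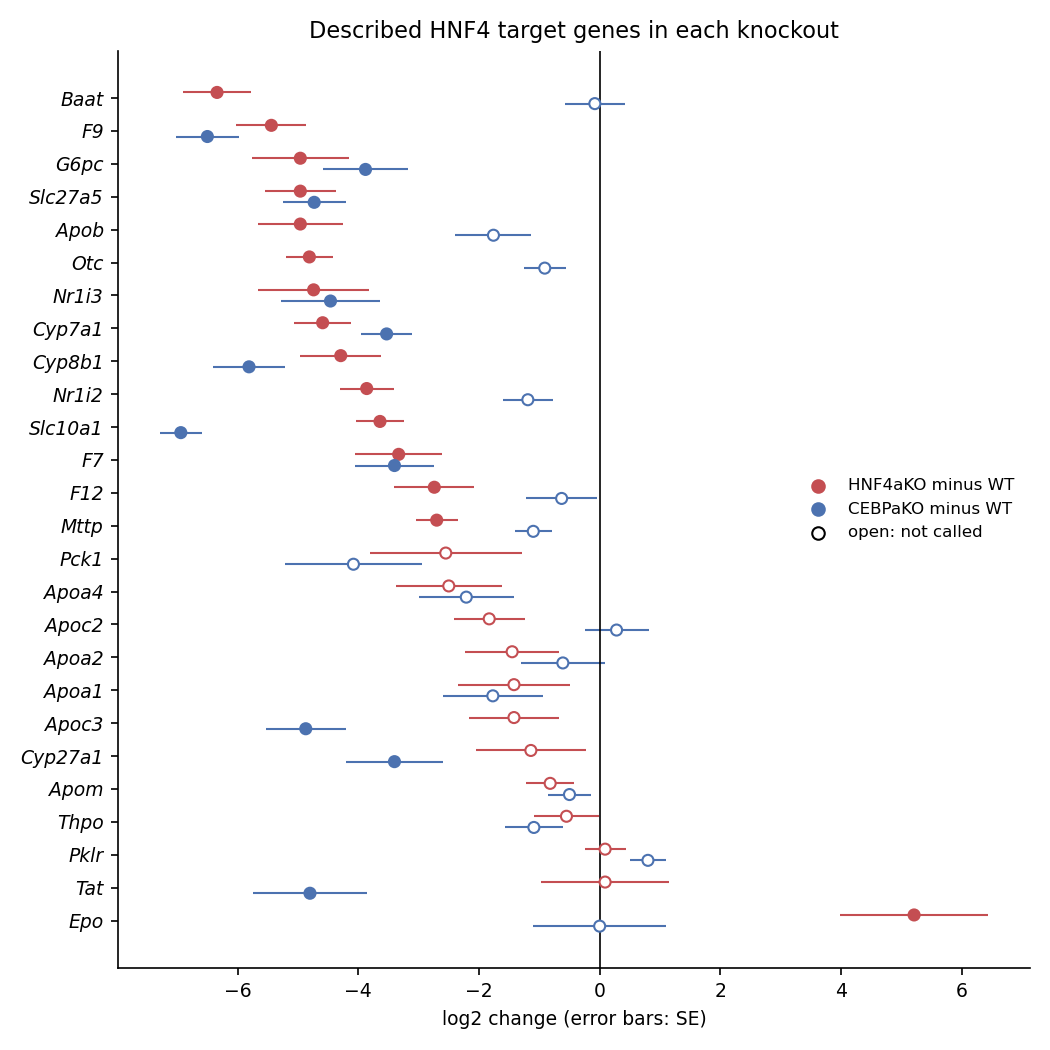
Log2 change (± SE) of 26 described HNF4 target genes in HNF4aKO minus WT (red) and CEBPaKO minus WT (blue), filled where called. Most points lie left of 0 in both, Baat and Otc are far left in red alone, and Epo, at 5.21, is the called gene to the right.

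The starts of these targets were also compared with those of Hnf4a and Hnf4g. An HNF4α region within 1 kb of the start was found for 21 of 26 targets at E15.5, 14 at E18.5, 19 at P0.5, 21 at P14 and 23 at P60. Over all genes it was found for 13.0%, 3.69%, 12.7%, 12.1% and 16.9% in turn. Hnf4a and Hnf4g had no HNF4α region within 1 kb of their annotated starts at any stage. For Hnf4a that start is the upstream end of the gene, so this window does not cover P1. An HNF4α region bound at P60, at 40.3 kb, lay at the RefSeq distance of P1. C/EBPα had a region at the start of 4, 19, 23, 18 and 17 of the 26 at the 5 stages in turn. Over all genes it had one for 4.04%, 19.6%, 28.4%, 15.2% and 14.6%. The targets were collected as genes known for HNF4 binding and expression in liver, so their counts are only a description.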

How the data were processed

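RNA was analysed in 8 livers and binding in 20 peak lists; 20 polymerase II and input samples were not used here. The RNA values are a score that the authors deposited as DESeq-normalized reads: whole numbers per gene after division by a size factor per library. Such values are not raw counts, so limma 3.58.1 in R 4.3.3 was used and no count model. The submitters' processing notes name bcl2fastq, FastQC, TopHat2, Cufflinks, BWA, bedtools, DESeq, MACS 1.4 and build mm9. The deposited gene table gives the GC fraction of each gene, and the deposited peak lists give peak start and end only, with other fields unused. All 8 files per sample equalled their columns of the table. The depth in reads is unknown beyond the normalized totals.

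The 17771 genes that reached 10 normalized reads in 2 or more libraries were kept. Values were taken as log2(value + 1), and fold changes on that scale understate those of low genes. All 8 libraries entered a single limma fit with a variance trend, 2-sided, with Benjamini-Hochberg adjustment over all genes; a call needed an adjusted p under 0.05 and at least a 2-fold change. The labels call the ChIP replicates biological and do not say so of the RNA replicates, whose p-values measure the spread between these samples. Peaks were merged by own Python 3.11.15 code, with an overlap of at least 1 bp; the gene window added 10 kb on each side and the start window 1 kb. Promoter sequences are RefSeq's. Named were both members, called list genes (up to 5 per direction and comparison), the 5 most alike genes, neighbours within 100 kb and leading markers. A result of the target list is not reported here. The members and gene lists were chosen with earlier results of these data known. Alternatives changed pseudocount, filter, scaling, weights, libraries and windows.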

Additional observations from a re-analysis of the deposited data

How the results depend on the processing

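Of 267 recomputed results, 217 kept their direction and side of the threshold or moved little, 36 counts moved, 7 lost a call, 3 gained one, 3 changed sign and 1 came to 0; the causes were not tested unless given here. Hnf4a in HNF4aKO minus WT kept its direction throughout, at -2.44 to -1.46 with single libraries left out; its call was lost without the filter on low values (-1.95) and without a variance trend (-1.95). Without CEBPaKO replicate 1 and WT replicate 3, chosen after seeing the data, it was -1.95 (adjusted p = 0.143 in limma). Library quality weights added calls for Hnf4a in CEBPaKO minus WT (-1.66) and for Hnf4g in HNF4aKO minus WT (2.32) and CEBPaKO minus WT (2.46). Hnf4g in HNF4aKO minus CEBPaKO, which was not called, changed sign with library totals (-0.19) and with quality weights (-0.14), and ran from -0.09 to 0.82 with single libraries left out.

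The replicate numbers did not pair the samples: correlations of deviations between libraries with the same number ran from -0.23 to 0.19. In a fit with the replicate block, Hnf4a in HNF4aKO minus WT was -1.81 (adjusted p = 0.113, not called), and 486 genes were called there and 288 in HNF4aKO minus CEBPaKO. The main counts of called genes were 836 in HNF4aKO minus WT, 666 in CEBPaKO minus WT and 619 in HNF4aKO minus CEBPaKO. Quality weights gave 3772, 2369 and 2516 in that order, and leaving out CEBPaKO replicate 1 with WT replicate 3 gave 347, 216 and 138. A fit of only the groups compared gave 1475 in HNF4aKO minus WT and 343 in HNF4aKO minus CEBPaKO, and no filter gave 403 in the last. With single libraries left out the counts ran from 238 (without HNF4aKO replicate 1) to 1372 (without CEBPaKO replicate 3), from 311 (without WT replicate 1) to 804, and from 88 (without HNF4aKO replicate 1) to 855. The targets called ran from 10 to 16 in HNF4aKO minus WT and from 7 to 13 in CEBPaKO minus WT. Scaling by library totals put the median of all genes at 0.53 in CEBPaKO minus WT and at -0.57 in HNF4aKO minus CEBPaKO, against 0.03 and 0 in the reported fit, and the share of calls that were lower to 40.6% and 78.9%, against 76.4% and 46.4%.

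Binding counts moved with the lists used. HNF4α regions over Hnf4a numbered 14, and 14 to 22 with a single replicate, 26 with 50 kb on each side. C/EBPα regions there numbered 21, 25 to 28 with a single replicate and 32 with 50 kb on each side. C/EBPα regions over Hnf4g numbered 2, and 6 when a peak in either replicate sufficed, 4 to 5 with a single replicate. The Hnf4g start was bound by C/EBPα at 1 stage, at 3 when either replicate sufficed and at 2 with a single replicate. The Hnf4a start was bound by C/EBPα at 2 stages, at 1 to 3 with a single replicate and at 0 within 500 bp.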
